A study of Mus musculus with 24 samples.

Results

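Ribosome biogenesis factors are the proteins that transcribe, modify, cut and fold ribosomal RNA and assemble it into ribosomal subunits, without being part of the finished ribosome. A list of 45 mouse genes of this kind, chosen by symbol, was followed through 24 liver RNA libraries, and all 45 were found among the 23284 gene symbols that the deposited tables list. The members fall into 6 roles: 2 subunits of RNA polymerase I, 3 proteins of the box C/D small nucleolar ribonucleoprotein (snoRNP), 4 of the box H/ACA snoRNP, 5 nucleolar chaperones and abundant nucleolar proteins, 15 factors of the small subunit and 16 of the large subunit.

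The study removed the transcription factor FoxO1 from mouse liver in an acute and in a constitutive way, and sampled each genotype after a fast and after refeeding. All mice were C57BL/6. In the acute model, FoxO1lox/lox mice received AAV8.TBG.Cre (Cre livers) or AAV8.TBG.eGFP (GFP livers) through the tail vein and were sampled on day 21. In the constitutive model, FoxO1-/- livers came from floxed mice crossed with Albumin-cre mice (KO livers), and FoxO1lox/lox livers served as controls (WT livers). Within each of these 4 genotypes, 3 libraries came from mice fasted for 4 h and then refed for 1 h, and 3 from mice that were only fasted for 4 h. The TBG and albumin promoters drive Cre in hepatocytes, so other liver cells keep Foxo1. Sex, age and whether each library came from its own animal are not given in the labels, so the p-values below measure the spread between these samples.

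Ribosome production begins in the nucleolus, where RNA polymerase I transcribes a long precursor RNA. SnoRNPs then modify this precursor, and the small subunit processome and a series of large subunit particles cut and fold it while ribosomal proteins bind. The pathway is among the most costly of a cell and is known to follow nutrients, insulin and mTOR signalling, with MYC as a well-known activator of its genes, which often carry the MYC recognition sequence CACGTG (an E-box) near their start.

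Levels are given in FPKM, fragment numbers normalised for transcript length and library size, as the authors deposited them. Tests compare log2(FPKM + 1) with limma. A gene was called, and is said to have risen or fallen, at a Benjamini-Hochberg adjusted p under 0.05 over all genes tested. Foxo1 read 0.212 to 0.571 FPKM in the 12 Cre and KO libraries, against 4.21 to 6.81 FPKM in the 12 GFP and WT libraries, as the labels state. The hepatocyte gene Alb stood at 31500 FPKM or more in every library. Relative depth, read from the steps between low values, was 0.549 to 1.37 times the mean of the 24 libraries, and each acute group held 1 library above and 2 below that mean (called deeper and shallower). Of the 45 members, 45 passed the filter of 1 FPKM or more in 3 or more libraries. Rrp1b, the lowest of them, passed it mainly through refed libraries.

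RefSeq tables for GRCm38.p6 gave a window of 250 bases before and 50 bases after the start site for 40 of the 45 members; Rrp12, Bop1, Npm1, Fbl and Rrs1 have none there. The E-box CACGTG, which reads the same on both strands, occurred in 10 of the 40 windows (25%), beside 12.2% of the 7630 tested genes with a window and 8.09% of all 27025 genes with one. Its contexts are printed here on the strand of the gene, 5′ to 3′, with the E-box in capitals, because it is the sequence best known from promoters of this pathway and most of these lay close together around the start.
Nop2: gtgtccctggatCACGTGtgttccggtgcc
Imp4: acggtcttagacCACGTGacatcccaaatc
Pes1: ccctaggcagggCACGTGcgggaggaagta
Wdr43: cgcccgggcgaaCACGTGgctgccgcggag
Nle1: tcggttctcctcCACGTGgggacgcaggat
Tsr1: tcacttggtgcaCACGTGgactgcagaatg
Ltv1: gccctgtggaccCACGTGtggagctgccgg
Grwd1: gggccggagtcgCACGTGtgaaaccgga
Utp20: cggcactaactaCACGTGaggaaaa
Mybbp1a: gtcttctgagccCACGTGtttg
These stretches lie at chr6:125131811-125131840 (plus strand), chr1:34439696-34439725 (plus), chr11:3963965-3963994 (plus), chr17:71616220-71616249 (plus), chr11:82908355-82908384 (minus), chr11:74898092-74898121 (plus), chr10:13193092-13193121 (minus), chr7:45830740-45830767 (minus), chr10:88826765-88826789 (minus) and chr11:72441355-72441376 (plus). The E-box began before the annotated start site in 2 members, 60 bases before it in Nop2 and 121 bases before it in Imp4. In the other 8 members it began 2 to 40 bases after the start site. An E-box after the start was thus present in 20% of the member windows, beside 2.03% of tested genes, and one before the start in 5% of the member windows, beside 10.7% of tested genes. The split by position was made after the positions had been seen and was not tested. It also depends on the start site used, here that of the RefSeq window. The deposited locus of Mybbp1a starts at chr11:72441378, after the printed stretch, so its E-box lies before that start. GENCODE M21 places the starts of Wdr43 and Grwd1 further upstream than the RefSeq window does. Of the other motifs searched on both strands, CACGCG was found in 30% of member windows and 19.8% of tested genes, CCGGAAG in 30% and 20.9%, CCAAT in 37.5% and 43.2%, GGGCGG in 70% and 68.1%, and TATAAA in 7.5% and 9.36%. GTAAACA, a core that FoxO and other forkhead factors bind, was found in 1 member window, that of Rrp1b (2.5%), beside 3.37% of tested genes. A match is a description of letters in the window only.

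Most of the 45 listed ribosome biogenesis factors were higher after 1 h of refeeding. The list was chosen with earlier results of these data known. The counts below therefore describe this list and are no independent test of the pathway. Averaged over the 4 genotypes in a fit of all 24 libraries, 40 of the 45 members were called higher in refed livers and 0 lower, where 19.9% of the 10682 genes tested were called higher and 10.4% lower. The median change of the members was 0.35 on the log2 scale, beside 0.04 for all genes tested. Of the 45 members 44 (97.8%) lay above 0, beside 60.3% of genes. By role, the calls took in 2 of 2 polymerase I subunits, 3 of 3 box C/D proteins, 3 of 4 box H/ACA proteins, 5 of 5 nucleolar chaperones and abundant proteins, 12 of 15 small subunit factors and 15 of 16 large subunit factors. In liver tissue, a change in the number of cells of a type and a change in RNA per cell cannot be told apart. Markers of other liver cells were higher in the same pooled result: 5 of 8 sinusoidal endothelial, 3 of 8 Kupffer cell and 6 of 8 stellate cell markers were called higher and 0 lower, with median changes of 0.29, 0.50 and 0.38. Their part in the pooled rise of the members was not tested, and their values by genotype are given with the marker lists.

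The size of the change differed widely between members. Mean FPKM over the 12 refed libraries was at least 2 times that over the 12 fasted libraries for 4 members and at least 1.5 times for 16. These fold counts are a description, given without a share over all genes. For 15 members every refed library of the study stood above every fasted library, which held for 0.599% of the genes tested (64 of 10682). These were Polr1a, Nop56, Nop58, Nolc1, Ddx21, Wdr43, Wdr75, Heatr1, Bysl, Nob1, Rrp12, Nop2, Wdr12, Ppan and Grwd1. The median of log2(FPKM + 1) over the 45 members was 2.95 to 3.57 in the refed libraries, against 2.64 to 2.91 in the fasted libraries. The same median over all genes tested was also higher after refeeding in the acute model, by less: it was 2.90 to 2.95 in refed and 2.79 to 2.83 in fasted Cre libraries, and 2.90 to 2.95 in refed and 2.83 to 2.84 in fasted GFP libraries. In the constitutive model it overlapped between states, at 2.77 to 2.85 in refed and 2.80 to 2.87 in fasted KO libraries, and at 2.77 to 2.87 in refed and 2.81 to 2.83 in fasted WT libraries.

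**Figure D1:**
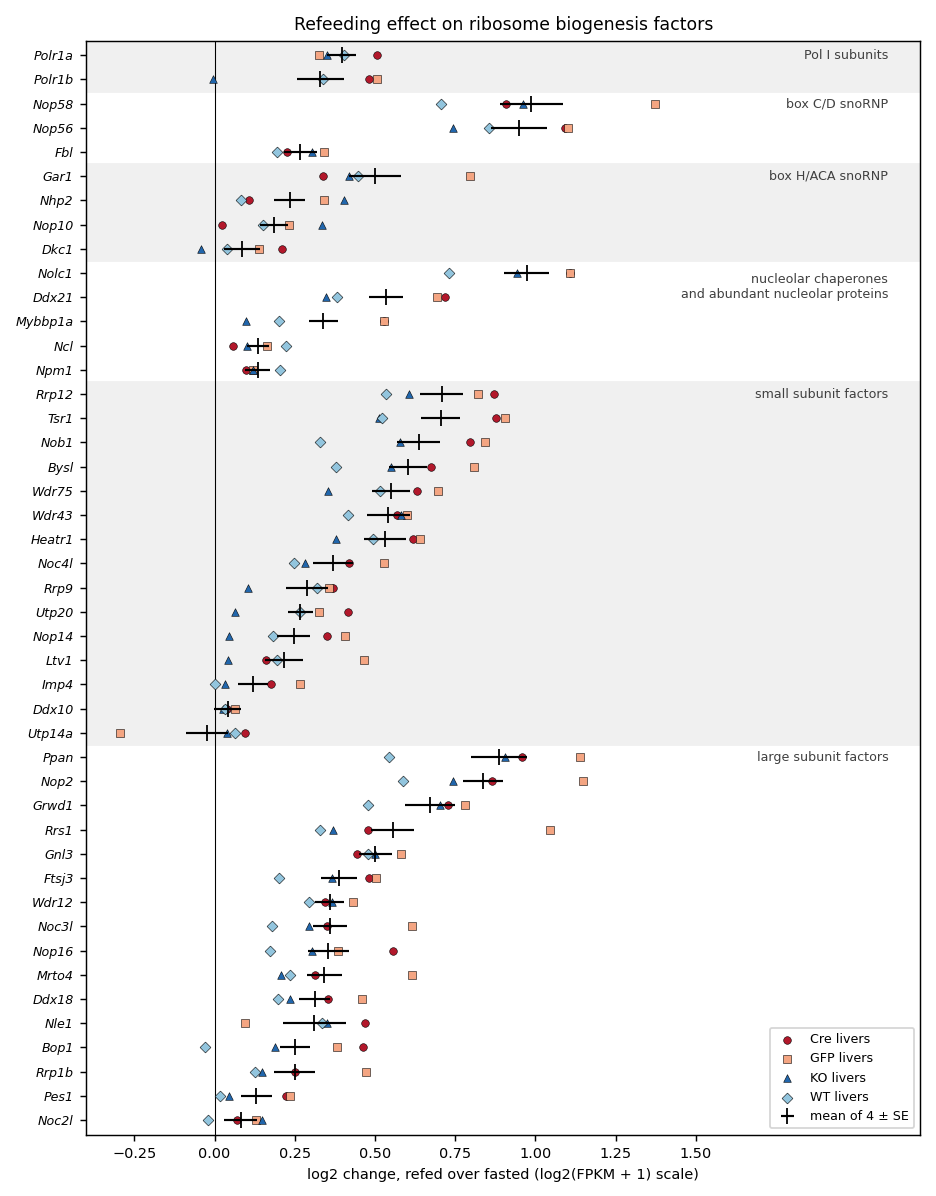
Refeeding effect of each of the 45 members, grouped by role. The horizontal axis is the log2 change of FPKM + 1 in refed over fasted livers, symbols are the 4 genotypes, and the black bar is the mean of 4 ± SE. Nop58, Nolc1, Nop56, Ppan and Nop2 lie farthest to the right in the mean, and Utp14a and Ddx10 lie near 0.

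Within single genotypes, 22 members rose in Cre livers, where 4.3% of the 10452 genes tested were called higher. In GFP livers 28 members rose, beside 4.81% of genes, and in KO livers 16 rose, beside 2.0% of 10375 genes. In WT livers limma called 0 members, beside 0.154% of genes called higher. There, 26 of the 45 members had an unadjusted p under 0.05, as did 1614 of the 10375 genes tested. Median changes of the members were 0.44 in Cre, 0.50 in GFP, 0.34 in KO and 0.27 in WT livers, against 0.08, 0.08, -0.02 and 0.01 for all genes tested. No member was called lower in any of the 4, where 1.15% of genes were in Cre, 1.75% in GFP, 3.68% in KO and 0.164% in WT livers. The lowest adjusted p in WT livers was 0.0604, for Nolc1, whose change there was 0.73 with a 95% interval from 0.42 to 1.05. Every refed library was above every fasted library for 34 members in Cre livers (23.0% of genes), 40 in GFP livers (19.9%), 27 in KO livers (13.1%) and 27 in WT livers (10.2%).

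These counts depended on single libraries more than the pooled result did. The Cre count was 7 without fasted library 2, 8 without refed library 1 and 14 without fasted library 1, and 0 when only the 8 shallower acute libraries were fitted. The GFP count was 17 without fasted library 1 and 14 in the shallower libraries. The KO count was 1 without fasted library 1 or refed library 2, 2 without fasted library 2, 3 without fasted library 3 and 7 without refed library 1, and the WT count was 3 without refed library 2. Scaling the libraries by their median ratios changed the all-gene split from 449 higher and 120 lower to 189 and 175 in Cre livers, and from 503 and 183 to 262 and 308 in GFP livers. In KO livers the split went to 391 higher and 435 lower with that scaling, beside 207 and 382 without it, and in the pooled result to 1575 and 1606, beside 2128 and 1108. With that scaling 14 members rose in Cre, 22 in GFP, 20 in KO and 0 in WT livers, and 38 in the pooled result.

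RNA polymerase I transcribes the ribosomal RNA precursor, and Polr1a and Polr1b are its core subunits. Polr1a had 5.32, 4.17 and 4.2 FPKM in refed Cre livers, against 2.91, 2.69 and 3.12 FPKM in fasted Cre livers, and 4.26, 4.28 and 4.42 FPKM in refed GFP livers, against 3.01, 3 and 3.77 FPKM in fasted GFP livers. Polr1a values in the constitutive model were 4.26, 4.27 and 4.23 FPKM in refed KO livers, against 2.98, 2.97 and 3.43 FPKM in fasted KO livers, and 3.87, 3.89 and 4.97 FPKM in refed WT livers, against 3.04, 2.9 and 2.91 FPKM in fasted WT livers. All 12 refed libraries were above all 12 fasted ones, and the mean effect was a rise (0.40 ± 0.046, adjusted p = 5.9e-06, fold 1.42). Polr1b had 6.53, 4.93 and 5.64 FPKM in refed Cre livers, against 4.05, 3.68 and 3.62 FPKM in fasted Cre livers, and 4.25, 4.84 and 5.56 FPKM in refed GFP livers, against 2.91, 3.26 and 3.23 FPKM in fasted GFP livers. Polr1b values in the constitutive model were 3.33, 5.01 and 3.46 FPKM in refed KO livers, against 4.29, 4.09 and 3.35 FPKM in fasted KO livers, and 4.34, 3.93 and 4.27 FPKM in refed WT livers, against 2.31, 2.98 and 4.24 FPKM in fasted WT livers. Refed and fasted libraries were apart in Cre and GFP livers and overlapped in KO and WT livers. Polr1b rose in Cre livers (0.48 ± 0.11, adjusted p = 0.031) and GFP livers (0.51 ± 0.11, adjusted p = 0.0214). Its change in KO livers was -0.00, with a 95% interval from -0.36 to 0.35.

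The box C/D snoRNP guides ribose methylation of ribosomal RNA. Nop56 and Nop58 form its scaffold and Fbl, fibrillarin, is the methyltransferase. Nop58 had 21.4, 11.7 and 16.8 FPKM in refed Cre livers, against 6.98, 8.46 and 9.15 FPKM in fasted Cre livers, and 19.1, 19.1 and 15.1 FPKM in refed GFP livers, against 5.49, 6.89 and 6.33 FPKM in fasted GFP livers. Nop58 values in the constitutive model were 12.9, 16.7 and 11.3 FPKM in refed KO livers, against 5.31, 6.96 and 7.15 FPKM in fasted KO livers, and 9.99, 10.6 and 17 FPKM in refed WT livers, against 7.39, 6.46 and 7.4 FPKM in fasted WT livers. Nop58 had the largest mean refeeding effect of the 45 members (0.99 ± 0.098, adjusted p = 1.4e-06, fold 2.16), and no refed library overlapped the fasted ones. Nop56 had 22.7, 18.7 and 20.1 FPKM in refed Cre livers, against 8.97, 7.58 and 10.9 FPKM in fasted Cre livers, and 21.5, 21.8 and 20 FPKM in refed GFP livers, against 8, 10.1 and 9.8 FPKM in fasted GFP livers. Nop56 values in the constitutive model were 13.7, 24.6 and 15 FPKM in refed KO livers, against 9.1, 11.9 and 8.84 FPKM in fasted KO livers, and 16.3, 15.8 and 20.1 FPKM in refed WT livers, against 9.55, 7.78 and 10.2 FPKM in fasted WT livers. Nop56 was apart between states in all 4 genotypes too, with its highest value in refed KO library 2 (mean effect 0.95 ± 0.086, adjusted p = 5.9e-07, fold 2.04). Fbl had 23.6, 24.5 and 22.7 FPKM in refed Cre livers, against 18.5, 20.6 and 21.1 FPKM in fasted Cre livers, and 21, 24 and 25 FPKM in refed GFP livers, against 15.2, 20.5 and 19.3 FPKM in fasted GFP livers. Fbl values in the constitutive model were 25.6, 28.8 and 22.4 FPKM in refed KO livers, against 20.9, 21 and 19.5 FPKM in fasted KO livers, and 22.5, 22.1 and 25.6 FPKM in refed WT livers, against 21.5, 19.1 and 20.2 FPKM in fasted WT livers. Refed libraries were above fasted ones within each genotype, but the rise was smaller (0.27 ± 0.052, adjusted p = 0.00076, fold 1.21), and none of the 4 single comparisons called it. In mean FPKM over all libraries, Fbl was 21.3% higher refed.

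The box H/ACA snoRNP converts uridines of ribosomal RNA to pseudouridine and also belongs to telomerase. Dkc1 is its enzyme, and Gar1, Nhp2 and Nop10 are its partners. Dkc1 had 5.88, 5.92 and 6.76 FPKM in refed Cre livers, against 5.25, 5.22 and 5.16 FPKM in fasted Cre livers, and 5.08, 5.13 and 5.88 FPKM in refed GFP livers, against 4.13, 5.04 and 5.22 FPKM in fasted GFP livers. Dkc1 values in the constitutive model were 4.42, 3.83 and 3.65 FPKM in refed KO livers, against 4.35, 4.18 and 3.8 FPKM in fasted KO livers, and 4.88, 3.38 and 3.97 FPKM in refed WT livers, against 3.16, 4.36 and 4.28 FPKM in fasted WT livers. Only Cre livers kept the states apart, and Dkc1 was not called (0.09 ± 0.056, adjusted p = 0.253, interval -0.03 to 0.20). Nhp2 had 21.2, 19.5 and 19.8 FPKM in refed Cre livers, against 17.8, 18 and 20.2 FPKM in fasted Cre livers, and 18.7, 21.1 and 19.3 FPKM in refed GFP livers, against 16.5, 14.2 and 15.3 FPKM in fasted GFP livers. Nhp2 values in the constitutive model were 24.3, 28.4 and 19.6 FPKM in refed KO livers, against 18.3, 18.6 and 16.7 FPKM in fasted KO livers, and 18.4, 18.7 and 20.4 FPKM in refed WT livers, against 18.5, 17.6 and 17.9 FPKM in fasted WT livers. The states were apart in GFP and KO livers and overlapped in Cre and WT livers, and the mean effect was a rise (0.23 ± 0.049, adjusted p = 0.00142, fold 1.19). Gar1 rose with a fold of 1.54 (0.50 ± 0.082, adjusted p = 0.00016), and Nop10, with a fasted mean of 70.6 FPKM, rose with a fold of 1.14 (0.19 ± 0.044, adjusted p = 0.00382).

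Of the nucleolar chaperones and abundant nucleolar proteins, Nolc1 (Nopp140), which chaperones snoRNPs, showed the strongest change. Nolc1 had 15.1, 11.4 and 11.2 FPKM in refed Cre livers, against 5.2, 4.64 and 5.97 FPKM in fasted Cre livers, and 12.5, 15.1 and 14.2 FPKM in refed GFP livers, against 5.25, 5.97 and 6.62 FPKM in fasted GFP livers. Nolc1 values in the constitutive model were 10.3, 13.2 and 10.8 FPKM in refed KO livers, against 4.93, 5.55 and 5.84 FPKM in fasted KO livers, and 11.2, 8.82 and 14.2 FPKM in refed WT livers, against 6.63, 5.76 and 6.69 FPKM in fasted WT livers. No refed library overlapped the fasted ones, the fold was 2.14, and its adjusted p was the lowest of the members (0.97 ± 0.071, adjusted p = 4.8e-08). The abundant proteins nucleolin (Ncl) and nucleophosmin (Npm1) bind pre-ribosomal particles and histones. Ncl had 17.9, 20.4 and 18.1 FPKM in refed Cre livers, against 18.2, 17.7 and 18.1 FPKM in fasted Cre livers, and 20.9, 19.9 and 19.7 FPKM in refed GFP livers, against 18.5, 19 and 16.2 FPKM in fasted GFP livers. Ncl values in the constitutive model were 17.4, 18.7 and 19.4 FPKM in refed KO livers, against 17.9, 17.3 and 16.3 FPKM in fasted KO livers, and 20, 17.9 and 19.6 FPKM in refed WT livers, against 16, 16 and 16.8 FPKM in fasted WT livers. Ncl libraries were apart in GFP and WT livers and overlapped in Cre and KO livers (0.14 ± 0.035, adjusted p = 0.0061, fold 1.1). Npm1 had 79.4, 88.9 and 89.7 FPKM in refed Cre livers, against 80.5, 81.4 and 78.7 FPKM in fasted Cre livers, and 94.9, 94.5 and 85.2 FPKM in refed GFP livers, against 90.8, 89.4 and 73.2 FPKM in fasted GFP livers. Npm1 values in the constitutive model were 79.2, 81.5 and 87.8 FPKM in refed KO livers, against 79.6, 77 and 72 FPKM in fasted KO livers, and 82.9, 80.9 and 84.9 FPKM in refed WT livers, against 73.9, 68.2 and 73.6 FPKM in fasted WT livers. Npm1, the member with the highest level, was apart only in WT livers, and its pooled rise was 9.76% (0.13 ± 0.039, adjusted p = 0.0138). With median-ratio scaling Npm1 was no longer called in the pooled result (adjusted p = 0.0856). The helicase Ddx21 rose with a fold of 1.54 (0.54 ± 0.053, adjusted p = 1.4e-06), and the Myb-binding protein Mybbp1a with a fold of 1.3; its values are given with the comparison of the models.

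**Figure D2:**
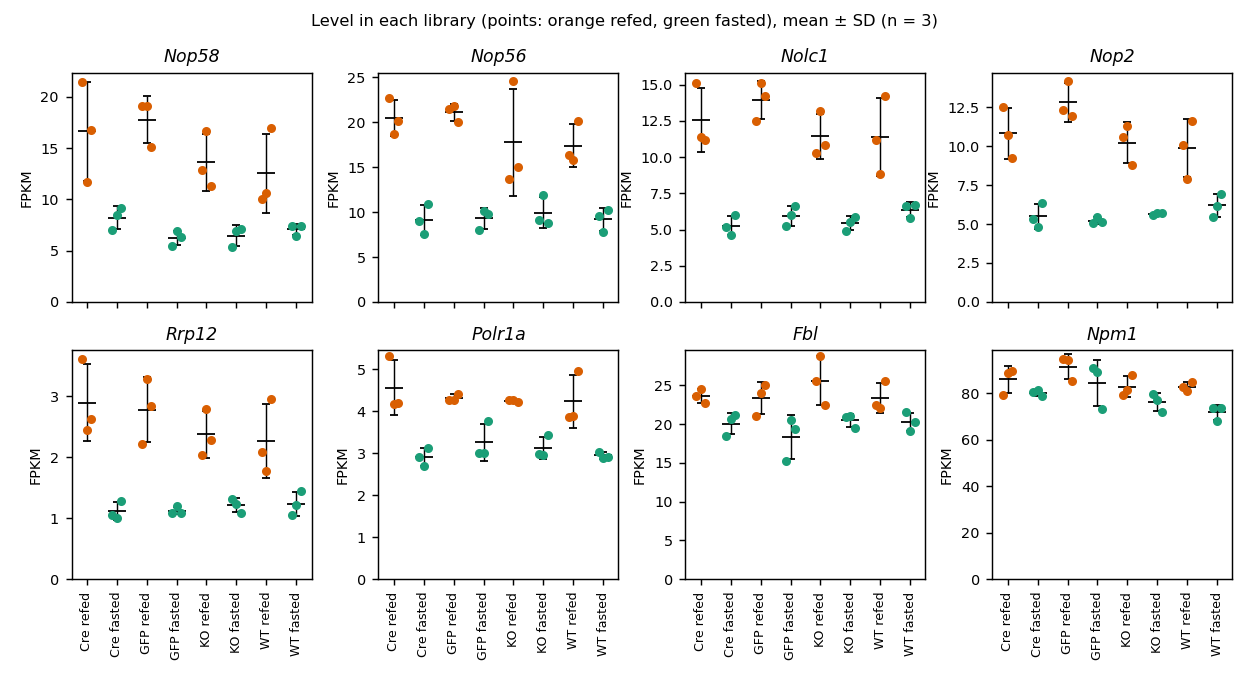
FPKM of 8 members in each of the 24 libraries (points, orange for refed and green for fasted), with mean ± SD of the 3 libraries of each group. Nop58, Nop56, Nolc1, Nop2 and Rrp12 are higher in every refed library than in any fasted one, whereas Npm1 overlaps in Cre, GFP and KO livers.

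Among small subunit factors, the processome proteins Heatr1, Wdr43 and Wdr75 load early on the precursor and are also needed for its transcription. Heatr1 had 4.92, 2.89 and 3.78 FPKM in refed Cre livers, against 2.18, 2.06 and 2.14 FPKM in fasted Cre livers, and 3.18, 4.16 and 3.7 FPKM in refed GFP livers, against 1.75, 2.07 and 2.19 FPKM in fasted GFP livers. Heatr1 values in the constitutive model were 2.73, 3.36 and 2.83 FPKM in refed KO livers, against 2.19, 1.9 and 2.06 FPKM in fasted KO livers, and 2.98, 2.8 and 3.95 FPKM in refed WT livers, against 2.24, 1.67 and 2.1 FPKM in fasted WT livers. Wdr43 had 11.3, 8.17 and 8.5 FPKM in refed Cre livers, against 5.85, 5.76 and 6.08 FPKM in fasted Cre livers, and 7.84, 11.1 and 8.57 FPKM in refed GFP livers, against 6.26, 5.74 and 5.01 FPKM in fasted GFP livers. Wdr43 values in the constitutive model were 7.73, 9.48 and 7.96 FPKM in refed KO livers, against 5.43, 5.32 and 5.03 FPKM in fasted KO livers, and 7.07, 6.86 and 10.2 FPKM in refed WT livers, against 5.77, 5.55 and 5.73 FPKM in fasted WT livers. Both genes were apart between states in all 24 libraries, with pooled folds of 1.68 for Heatr1 (0.53 ± 0.065, adjusted p = 8.7e-06) and 1.55 for Wdr43 (0.54 ± 0.067, adjusted p = 1.1e-05). Wdr75 rose alike in size (0.55 ± 0.059, adjusted p = 2.5e-06, fold 1.59).

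Rrp12 acts in export and late maturation of the small subunit, and Bysl (bystin), Nob1, Ltv1 and Tsr1 also act late. Rrp12 had 3.62, 2.44 and 2.63 FPKM in refed Cre livers, against 1.06, 1 and 1.29 FPKM in fasted Cre livers, and 2.22, 3.29 and 2.84 FPKM in refed GFP livers, against 1.09, 1.2 and 1.09 FPKM in fasted GFP livers. Rrp12 values in the constitutive model were 2.04, 2.8 and 2.29 FPKM in refed KO livers, against 1.32, 1.23 and 1.09 FPKM in fasted KO livers, and 2.09, 1.78 and 2.95 FPKM in refed WT livers, against 1.06, 1.21 and 1.45 FPKM in fasted WT livers. Rrp12 was low in all libraries, every refed value exceeded every fasted one, and its fold of 2.2 was the largest of the 45 members (0.71 ± 0.067, adjusted p = 9.9e-07); adding 1 to its FPKM before taking the logarithm makes the log2 change smaller than the fold. Bysl had 5.67, 4.34 and 4.83 FPKM in refed Cre livers, against 2.71, 2.37 and 3.1 FPKM in fasted Cre livers, and 4.28, 5.77 and 5.06 FPKM in refed GFP livers, against 2.15, 2.43 and 2.73 FPKM in fasted GFP livers. Bysl values in the constitutive model were 4.45, 4.85 and 3.95 FPKM in refed KO livers, against 2.93, 2.9 and 2.29 FPKM in fasted KO livers, and 3.95, 3.49 and 4.8 FPKM in refed WT livers, against 2.95, 2.52 and 3.21 FPKM in fasted WT livers. Bysl was apart in every genotype and rose (0.60 ± 0.06, adjusted p = 1.4e-06, fold 1.72), as did Tsr1 (0.70 ± 0.06, adjusted p = 2.8e-07) and Nob1, the nuclease that makes the final cut of small subunit RNA (0.64 ± 0.067, adjusted p = 2.2e-06). Ltv1 had 10.8, 9.72 and 8.48 FPKM in refed Cre livers, against 7.46, 8.79 and 9.34 FPKM in fasted Cre livers, and 8.33, 9.49 and 8.91 FPKM in refed GFP livers, against 6.15, 6.97 and 5.45 FPKM in fasted GFP livers. Ltv1 values in the constitutive model were 8.68, 7.42 and 6.44 FPKM in refed KO livers, against 7.84, 7.54 and 6.34 FPKM in fasted KO livers, and 9.33, 7.43 and 8.52 FPKM in refed WT livers, against 7.81, 7.3 and 6.57 FPKM in fasted WT livers. Ltv1 was apart in GFP livers and overlapped in the other 3 genotypes, and its pooled rise was small (0.22 ± 0.058, adjusted p = 0.00855, fold 1.18) and was not called with only the shallower acute libraries (adjusted p = 0.0737).

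Other processome members changed less. Rrp9 belongs to the U3 snoRNP. Rrp9 had 7.96, 6.15 and 6.89 FPKM in refed Cre livers, against 5.58, 4.42 and 5.59 FPKM in fasted Cre livers, and 6.37, 7.05 and 8.3 FPKM in refed GFP livers, against 5.29, 5 and 5.97 FPKM in fasted GFP livers. Rrp9 values in the constitutive model were 6.3, 6.94 and 5.05 FPKM in refed KO livers, against 6.34, 5.21 and 5.19 FPKM in fasted KO livers, and 5.3, 6.23 and 7.24 FPKM in refed WT livers, against 5.58, 4.24 and 4.61 FPKM in fasted WT livers. It was apart in the acute model, overlapped in the constitutive one, and rose in the pooled result (0.29 ± 0.065, adjusted p = 0.00277). Imp4, which also joins U3, was apart in GFP livers alone. Imp4 had 11.1, 10.8 and 9.26 FPKM in refed Cre livers, against 9.28, 8.24 and 9.66 FPKM in fasted Cre livers, and 9.87, 8.8 and 11.1 FPKM in refed GFP livers, against 7.49, 7.99 and 8.68 FPKM in fasted GFP livers. Imp4 values in the constitutive model were 8.39, 7.97 and 8.03 FPKM in refed KO livers, against 8.33, 7.86 and 7.6 FPKM in fasted KO livers, and 9.08, 7.31 and 8.67 FPKM in refed WT livers, against 8.06, 9.22 and 7.71 FPKM in fasted WT livers. Imp4 was not called (0.12 ± 0.047, adjusted p = 0.0615, interval 0.02 to 0.22), although it passed the threshold with a term for depth (adjusted p = 0.0375) and in 5 of 24 fits that left out 1 library.

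Utp14a and the helicase Ddx10 had the smallest pooled effects. Utp14a had 7.07, 6.68 and 7.32 FPKM in refed Cre livers, against 7.32, 5.76 and 6.52 FPKM in fasted Cre livers, and 4.77, 6.05 and 6.62 FPKM in refed GFP livers, against 6.84, 7.35 and 7.73 FPKM in fasted GFP livers. Utp14a values in the constitutive model were 6.95, 8.78 and 5.93 FPKM in refed KO livers, against 6.74, 7.93 and 6.2 FPKM in fasted KO livers, and 7.89, 6.2 and 6.94 FPKM in refed WT livers, against 7.72, 5.78 and 6.54 FPKM in fasted WT livers. Utp14a was the only member whose refed libraries all stood below its fasted libraries in any genotype, in GFP livers, where the change was -0.29 and was not called (adjusted p = 0.138). Its pooled effect was -0.02 ± 0.065, adjusted p = 0.807, with an interval from -0.16 to 0.11. Ddx10 had 3.57, 3.02 and 3.21 FPKM in refed Cre livers, against 3.03, 3.39 and 3.02 FPKM in fasted Cre livers, and 2.89, 3.44 and 2.64 FPKM in refed GFP livers, against 3.11, 2.64 and 2.69 FPKM in fasted GFP livers. Ddx10 values in the constitutive model were 2.75, 2.68 and 2.71 FPKM in refed KO livers, against 2.73, 2.71 and 2.48 FPKM in fasted KO livers, and 3.02, 2.37 and 2.62 FPKM in refed WT livers, against 2.59, 2.54 and 2.58 FPKM in fasted WT livers. Ddx10 overlapped between states in every genotype and was not called (0.04 ± 0.041, adjusted p = 0.48, interval -0.04 to 0.13). Noc4l, Utp20 and Nop14 lay between, with pooled folds of 1.36, 1.33 and 1.23, and rose.

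Of the large subunit factors, Nop2, an rRNA methyltransferase, and Ppan, a partner of early large subunit particles, changed most. Nop2 had 12.5, 10.7 and 9.25 FPKM in refed Cre livers, against 5.33, 4.78 and 6.34 FPKM in fasted Cre livers, and 12.3, 14.2 and 11.9 FPKM in refed GFP livers, against 5.04, 5.46 and 5.14 FPKM in fasted GFP livers. Nop2 values in the constitutive model were 10.6, 11.3 and 8.78 FPKM in refed KO livers, against 5.55, 5.71 and 5.69 FPKM in fasted KO livers, and 10.1, 7.9 and 11.6 FPKM in refed WT livers, against 5.48, 6.17 and 6.93 FPKM in fasted WT livers. Ppan had 14.3, 14.5 and 12.4 FPKM in refed Cre livers, against 6.48, 6.27 and 6.95 FPKM in fasted Cre livers, and 13.7, 13.8 and 14.7 FPKM in refed GFP livers, against 5.26, 5.92 and 6.36 FPKM in fasted GFP livers. Ppan values in the constitutive model were 12.6, 20.6 and 10.3 FPKM in refed KO livers, against 6.05, 8.9 and 6.23 FPKM in fasted KO livers, and 9.52, 10.2 and 13.3 FPKM in refed WT livers, against 7.46, 6.49 and 7.62 FPKM in fasted WT livers. In both genes every refed library was above every fasted one, with folds of 1.94 for Nop2 (0.84 ± 0.063, adjusted p = 5.3e-08) and just under 2 for Ppan (0.89 ± 0.086, adjusted p = 1.2e-06). Ppan was highest in refed KO library 2, which also held the highest Nop56 value. Its SD was 5.37 FPKM in refed and 1.6 FPKM in fasted KO livers, and 2.02 and 0.613 FPKM in refed and fasted WT livers. The SE of its change was 0.21 in both KO and WT livers, because the groups of the constitutive fit share 1 estimate of the spread.

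Pes1, Bop1 and Wdr12 form 1 complex that is needed to mature large subunit RNA, and its 3 members moved unequally. Wdr12 had 6.72, 5.46 and 5.46 FPKM in refed Cre livers, against 4.37, 4.58 and 4.27 FPKM in fasted Cre livers, and 5.76, 6.23 and 5.3 FPKM in refed GFP livers, against 3.6, 4.4 and 4.05 FPKM in fasted GFP livers. Wdr12 values in the constitutive model were 5.98, 6.24 and 5.44 FPKM in refed KO livers, against 4.49, 4.66 and 3.89 FPKM in fasted KO livers, and 5.19, 4.87 and 5.95 FPKM in refed WT livers, against 4.36, 4.29 and 3.82 FPKM in fasted WT livers. Wdr12 was apart in all 24 libraries and rose (0.36 ± 0.045, adjusted p = 1.3e-05, fold 1.35). Bop1 had 11.4, 9.51 and 10.6 FPKM in refed Cre livers, against 8.43, 6.27 and 7.44 FPKM in fasted Cre livers, and 11.3, 9.53 and 10 FPKM in refed GFP livers, against 7.92, 7.72 and 7.31 FPKM in fasted GFP livers. Bop1 values in the constitutive model were 9.03, 9.17 and 8.29 FPKM in refed KO livers, against 7.83, 7.61 and 7.4 FPKM in fasted KO livers, and 8.5, 7.44 and 9.36 FPKM in refed WT livers, against 8.5, 8.39 and 8.89 FPKM in fasted WT livers. Bop1 was apart in Cre, GFP and KO livers, overlapped in WT livers, and rose in the pooled result (0.25 ± 0.046, adjusted p = 0.00049, fold 1.22). Pes1 had 12, 10.4 and 10.4 FPKM in refed Cre livers, against 9.11, 9.23 and 9.22 FPKM in fasted Cre livers, and 9.93, 8.83 and 11.4 FPKM in refed GFP livers, against 7.92, 8.34 and 8.77 FPKM in fasted GFP livers. Pes1 values in the constitutive model were 9.68, 9.79 and 8.64 FPKM in refed KO livers, against 9.81, 8.42 and 8.91 FPKM in fasted KO livers, and 9.64, 7.88 and 10.4 FPKM in refed WT livers, against 9.34, 9.54 and 8.55 FPKM in fasted WT livers. Pes1 was apart in Cre and GFP livers and overlapped in KO and WT livers, with a pooled rise of 11.0% (0.13 ± 0.048, adjusted p = 0.0438). The call of Pes1 was lost with median-ratio scaling, without the filter, with array weights, with the replicate number as a block, with only the shallower acute libraries and in 16 of 24 fits that left out 1 library. Over all alternatives run its adjusted p ran from 0.0115 to 0.157.

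The other large subunit factors rose apart from Noc2l. Noc2l had 13.9, 11.7 and 11.1 FPKM in refed Cre livers, against 11.8, 10.6 and 12.3 FPKM in fasted Cre livers, and 11.6, 11 and 12.1 FPKM in refed GFP livers, against 10.7, 11 and 9.79 FPKM in fasted GFP livers. Noc2l values in the constitutive model were 13.5, 14 and 10.3 FPKM in refed KO livers, against 11.2, 12.1 and 10.4 FPKM in fasted KO livers, and 10.9, 11.9 and 11.1 FPKM in refed WT livers, against 12.5, 11.5 and 10.4 FPKM in fasted WT livers. Noc2l overlapped in Cre, KO and WT livers, stood apart in GFP livers by a gap smaller than the rounding of these values, and was not called (0.08 ± 0.051, adjusted p = 0.234, interval -0.02 to 0.19), whereas its relative Noc3l rose (0.36 ± 0.052, adjusted p = 5.4e-05, fold 1.48). Grwd1, a chaperone of a ribosomal protein (0.67 ± 0.078, adjusted p = 5.6e-06), Rrs1 (0.56 ± 0.067, adjusted p = 7.5e-06) and the nucleolar GTPase Gnl3, nucleostemin (0.50 ± 0.052, adjusted p = 2e-06), rose most among the rest. The methyltransferase Ftsj3, the helicase Ddx18, Nop16, Mrto4, Nle1 and Rrp1b rose with folds between 1.28 (Mrto4) and 1.41 (Rrp1b), and the call of Nle1 was lost when only the shallower acute libraries were kept (adjusted p = 0.0853).

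Fasted levels of the members ran from below 1 FPKM (Rrp1b) to 78.2 FPKM (Npm1), and 35 of the 45 averaged under 10 FPKM. The 10 members with the highest fasted level had a median change of 0.25 (range 0.08 to 0.50), and the other 35 had a median of 0.37 (range -0.02 to 0.99). Across the 45 members, which share the same libraries, the correlation between log2 fasted level and change was r = -0.22 (Spearman rho = -0.28), given as a description. The 10 members with an E-box in the window had a median pooled change of 0.33, and the 30 with a window and no E-box had 0.36.

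**Figure D3:**
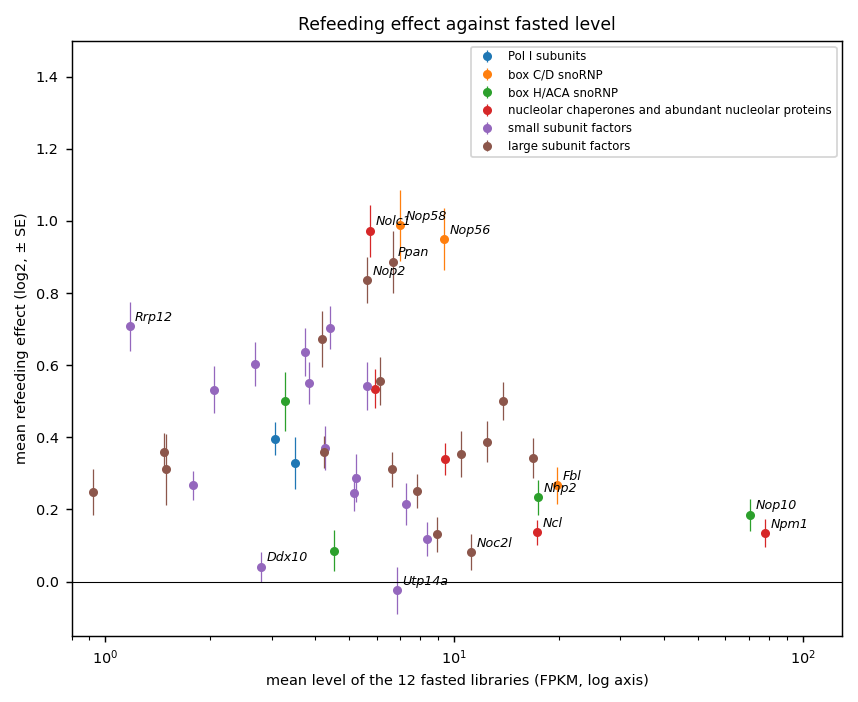
Pooled refeeding effect (log2, ± SE) of the 45 members against the mean FPKM of the 12 fasted libraries on a log axis, coloured by role. Npm1 and Nop10, at the far right, lie low, and the largest effects are those of members between 5 and 10 FPKM.

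Loss of FoxO1 did not give a called change in any member. Limma called 0 of 45 in fasted Cre against fasted GFP livers (0.297% of genes called in either direction, 5 members with an unadjusted p under 0.05), and 0 in refed Cre against refed GFP livers (0.105% of genes, 2 members). It called 0 in fasted KO against fasted WT livers (0.0964% of genes, 0 members) and 0 in refed KO against refed WT livers (0.0289% of genes, 2 members). Among all genes, an unadjusted p under 0.05 was reached by 1288 of 10452 in fasted and 950 in refed Cre against GFP livers. In KO against WT livers it was reached by 681 of 10375 genes fasted and 1124 refed. Averaged over the 4 pairs, the loss effect of members ran from -0.15 to 0.19, with a median of 0.04 beside 0.00 for all genes, and 0 were called where 3.14% of genes were. It lay above 0 for 33 of the 45 members (73.3%), beside 51.1% of all genes. That count ran from 26 to 35 with 1 library left out, and this lean was not tested. Over all 45 members the outermost bounds of the 95% intervals of this averaged loss effect were -0.29 and 0.38. Single members had SE from 0.035 to 0.098, and changes within a member's own interval were not excluded. In refed Cre against refed GFP livers alone the outermost bounds were -0.83 and 0.78.

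The lowest unadjusted p-values of this averaged effect were those of box H/ACA proteins and Utp20. Nhp2 differed by 0.15 ± 0.049 (adjusted p = 0.12), Nop10 by 0.12 ± 0.044 (adjusted p = 0.17) and Gar1 by 0.19 ± 0.082 (adjusted p = 0.268), each higher on average in Cre and KO than in GFP and WT livers. None passed the threshold. The tests of whether refeeding acted differently with and without FoxO1 called 0 of 45 members in the acute model (0.0287% of genes, 2 members with an unadjusted p under 0.05) and 0 in the constitutive model (0.0% of genes, 0 members). Among all genes, 690 of 10452 and 457 of 10375 had an unadjusted p under 0.05. This difference lay above 0 for 24.4% of members in the acute model, beside 52.5% of genes. In the constitutive model it lay above 0 for 57.8% of members, beside 43.6% of genes. The members share libraries, and this lean was not tested. For Nop58 the interval of the difference in refeeding effect ran from -1.03 to 0.11 in the acute model. For Rrs1, the member with the lowest p there, it ran from -1.04 to -0.09 (adjusted p = 0.737).

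**Figure D4:**
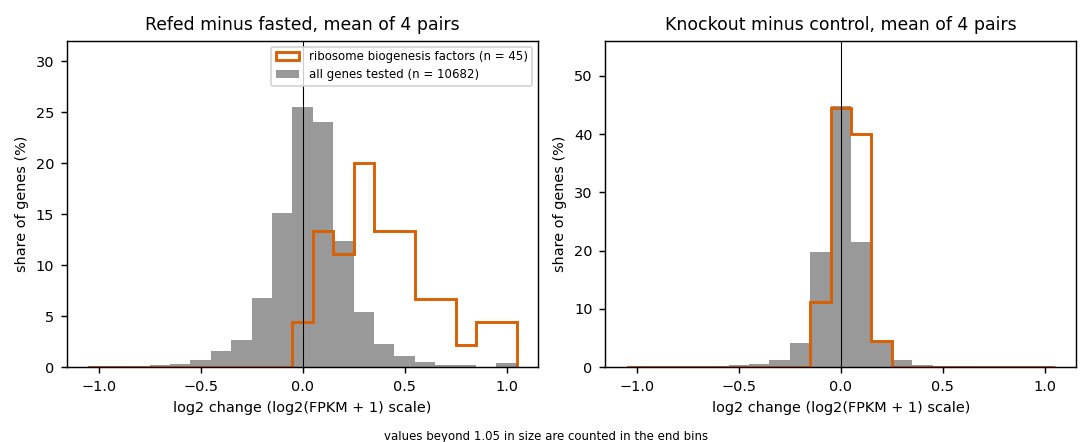
Share of genes by log2 change, for the 45 members (orange line) and all 10682 genes tested (grey), with refed minus fasted on the left and knockout minus control on the right, each averaged over 4 pairs. The members are shifted to the right on refeeding, with a median of 0.35. For FoxO1 loss they overlap the other genes, with a median of 0.04 beside 0.00. There, 73.3% of members lie above 0, beside 51.1% of all genes, a lean that was not tested.

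Refeeding effects in the 2 models, each the mean of knockout and control livers, were compared in the fit of all libraries. The effect was larger in the acute model for 39 of 45 members (86.7%), beside 69.3% of all genes tested. The median difference was 0.21 for members, beside 0.09 for all genes. This lean was not tested. Only Mybbp1a was called, where 1.43% of genes were called in either direction. With median-ratio scaling the median difference was 0.11 beside 0.01 for all genes, and 0 members were called. Mybbp1a had 15.1, 12.9 and 13.3 FPKM in refed Cre livers, against 9.66, 8.44 and 9.66 FPKM in fasted Cre livers, and 12.4, 13.2 and 12.9 FPKM in refed GFP livers, against 8.36, 7.65 and 9.87 FPKM in fasted GFP livers. Mybbp1a values in the constitutive model were 11.3, 11.9 and 10.5 FPKM in refed KO livers, against 9.86, 10.9 and 10.4 FPKM in fasted KO livers, and 10.5, 10.2 and 12.6 FPKM in refed WT livers, against 9.44, 9.54 and 9.53 FPKM in fasted WT livers. The states were apart in Cre, GFP and WT livers and overlapped in KO livers. Its refeeding effect was 0.53 in Cre, 0.53 in GFP, 0.10 in KO and 0.20 in WT livers, and the difference between models was 0.38 ± 0.089 (adjusted p = 0.0407). The next was Bop1 (0.34 ± 0.093, adjusted p = 0.058). The models differ in virus, cohort and depth as well, and these cannot be told apart.

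Most pairs of members correlated positively within groups. After removing group means, the median correlation over the 990 pairs of members across the 24 libraries, which all pairs share, was 0.35, and 86.6% of pairs lay above 0. The same value was not computed for other genes, so whether it is particular to the members was not tested. Refed KO library 2, refed WT library 3 and refed Cre library 1 had the highest summed FPKM of the 45 members in their groups, at 617, 575 and 632 FPKM.

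Markers of other liver cells moved with refeeding in the same libraries. Of 8 sinusoidal endothelial markers 3 rose in Cre livers, where their summed level was 46.2 to 69.8 FPKM in refed and 19.6 to 38.3 FPKM in fasted libraries. Median changes in Cre livers were 0.81 for endothelial, 0.82 for Kupffer cell and 0.53 for stellate cell markers, and in GFP livers 0.29, 0.59 and 0.33. In WT livers they were 0.10, 0.38 and 0.33, and limma called 0 of the 24 markers in GFP or WT livers. An unadjusted p under 0.05 held for 3 in GFP and 7 in WT livers, beside 2491 of 10452 and 1614 of 10375 genes. Summed endothelial levels in GFP livers were 57 to 76.2 FPKM refed and 31 to 61.9 FPKM fasted, and in WT livers 33.7 to 40.9 FPKM refed and 32.8 to 37 FPKM fasted. Summed Kupffer cell levels were 23 to 143 FPKM in refed and 25.1 to 41.6 FPKM in fasted Cre livers, 36.9 to 76.3 FPKM in refed and 24.7 to 41 FPKM in fasted GFP livers, and 79.2 to 84.3 FPKM in refed and 40.4 to 75.3 FPKM in fasted WT livers. Whether these cells had a part in the rise of the biogenesis factors was not tested in any genotype. In KO livers the endothelial median was -0.17, with summed levels of 42.9 to 46.0 FPKM in refed and 44.9 to 54.8 FPKM in fasted libraries. The Kupffer cell median there was 0.04, with 79.0 to 99.2 FPKM in refed and 72.5 to 99.8 FPKM in fasted libraries. Stellate markers had a median of 0.16 in KO livers, where Col1a2 rose, and Dcn was the stellate marker that rose in Cre livers. Few markers of lymphocytes and neutrophils or of cholangiocytes passed the filter (3 of 7 and 3 of 6 in the pooled fit). Limma called 0 of them in the pooled result, with 2 and 0 at an unadjusted p under 0.05, beside 4505 of 10682 genes. No marker on the endothelial, Kupffer and stellate lists was at 0 in all 3 libraries of any group. Of 5 hepatocyte markers found in the files, only Hnf4a rose in the pooled result (0.27), and of 7 proliferation markers only Pcna passed the filter, with a change of 0.00.

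**Figure D5:**
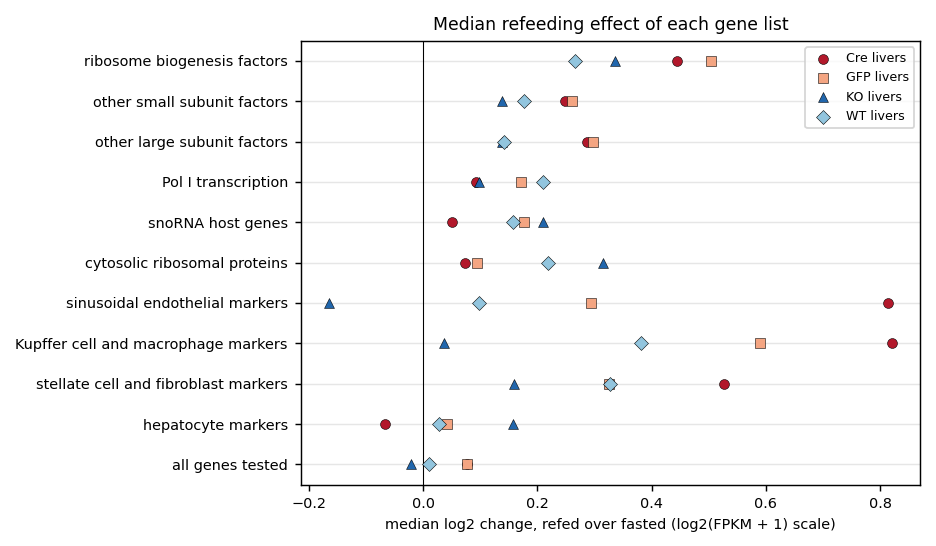
Median log2 change in refed over fasted livers for the 45 members, related gene lists, marker lists of liver cells and all genes tested, with 1 symbol per genotype. The biogenesis factors have the highest medians of the ribosome lists in all 4 genotypes, while the endothelial and Kupffer cell lists range from near or below 0 in KO livers to over 0.8 in Cre livers, and for all genes the Cre symbol is hidden under the GFP one.

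Reads of several members may be shared with other genes. In GENCODE M21, 24 of the 45 members share exon bases with another gene, 5 of them on the same strand. The same-strand overlaps are with small RNA genes inside Nop56, Nop58, Ncl, Gnl3 and Ppan. Members overlapped on the other strand include Nop56 (Idh3b), Rrp9 (Parp3), Bysl (Ccnd3) and Tsr1 (Srr). The library kit keeps strand, but the setting used to count it was not given in the sources used here, so for these genes the 2 sources cannot be told apart. Mrto4 has pseudogene copies that carry its symbol, and its values are uncertain to that extent. Pseudogene copies under other names were not searched for, so other members may share this uncertainty.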

How the data were processed

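Liver mRNA of 24 libraries was sequenced from a stranded kit, per the labels' protocols. The FPKM values were computed by the authors before deposit. HISAT2, Cufflinks, Cuffdiff and the build mm10 are named in the submitters' processing notes, with no versions, and the strand setting was not given in the sources used here. Total depth is unknown. Relative depth was read from the steps of low values, and no counting interval can be given.

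Groups came from the sample titles. The 45 members and all gene lists were chosen with earlier results of these data known. Genes with FPKM of 1 or more in 3 or more fitted libraries were tested as log2(FPKM + 1), a scale that understates changes of low genes, by linear models in limma 3.58.1 (R 4.3.3), with a mean-variance trend and 1 coefficient per group. The acute fit held 10452 genes, the constitutive fit 10375 and the joint fit 10682. The two-sided p-values of each fit were adjusted by the Benjamini-Hochberg method across its genes. Errors after ± are SE and intervals are at 95%. Folds are ratios of mean FPKM over libraries. Mean effects over 4 pairs and differences between models came from the joint fit. The fits were tested on simulated data.

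Given in every library were 20 key members of the roles, the 5 members with the largest and the 5 with the smallest mean refeeding effect, and members called outside refeeding. Of the other lists, up to 4 members with the lowest adjusted p were eligible, with Myc, Rrn3, Ubtf and Gas5. Of 240 list entries 232 were in the files, 2 under another symbol. Promoter windows came from RefSeq tables (GRCm38.p6) and were matched by symbol. Gene overlaps came from GENCODE M21, and figures were drawn with matplotlib 3.10.9.

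Alternatives were fits without each library in turn, calls at 0.01, no filter, a pseudocount of 0.1, median-of-ratios scaling, array weights, the compared groups alone, a depth term, the shallower acute libraries alone, and a block for the replicate number.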

Additional observations from a re-analysis of the deposited data

Results flagged for a closer look

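Mybbp1a, a nucleolar Myb-binding protein, was flagged because its refeeding effect differed between the 2 models in a test of that difference. The acute effect exceeded the constitutive effect by 0.38 on the log2 scale (interval 0.19 to 0.56, limma adjusted p = 0.0407). It rose in both genotypes of the acute model, with folds of 1.49 in Cre and 1.49 in GFP livers, and was not called in KO (fold 1.08) or WT livers (fold 1.17). Leaving out 1 library at a time gave differences of 0.34 to 0.42, and the call held in 7 of 24 such fits, with adjusted p between 0.0165 and 0.078. Over every alternative run its adjusted p lay between 0.0165 and 0.133, the highest with median-ratio scaling. The models also differ in virus, cohort and depth, which cannot be told apart from the deletion method.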

How the results depend on the processing

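The pooled refeeding result kept between 37 and 41 members called higher under every alternative run, and 39 to 41 with 1 library left out. All called results kept their direction in the alternatives run. Counts in single genotypes moved more, and the cause was not tested. In GFP livers 14 members were called at 0.01, 17 with the compared groups alone and 14 in the shallower libraries, with a range of 17 to 22 when 1 library was left out. In Cre livers the counts were 8 at 0.01, 11 with the compared groups alone, 14 with median-of-ratios scaling and 0 in the shallower libraries, with a range of 7 to 18. In KO livers they were 1 at 0.01, 7 with the compared groups alone and 3 without the filter, where more genes share the adjustment, with a range of 1 to 18. In WT livers array weights gave 8, and the range was 0 to 3. For the difference between models, 0 members were called at 0.01, with scaling and without the filter, and 2 with the depth term; the range was 0 to 3. Averaged FoxO1 loss gave 0 to 1 members with 1 library left out, and each knockout comparison and interaction gave 0 in every alternative run.

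Whether replicate numbers pair the samples was not settled. Over 24 pairs of same-numbered libraries the correlation of deviations ran from -0.34 to 0.37. Of these, 10 pairs correlated best with their own number, and in 0 of 8 comparisons did every pair exceed 0.1. The deeper acute library had the same number fasted and refed, 3 in GFP and 1 in Cre livers, with correlations of 0.25 and 0.37. With 3 libraries per group, such correlations cannot exclude pairing. With the replicate number as a block, 15 members rose in Cre, 23 in GFP, 14 in KO and 0 in WT livers, 39 in the pooled result and 2 in the difference between models. In the authors' FPKM intervals the median half-width of members ran from 3.93% for Ncl to 31.5% for Nle1. It did not follow the level alone. It was 23.4% for Rrp1b, the lowest member, 25.2% for Gar1, and 6.14% for Npm1, the highest.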

Other observations

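Genes of the same pathway outside the 45 also rose on refeeding. These lists too were chosen with earlier results of these data known, so their counts are no independent test. In the pooled result, 25 of 37 other small subunit factors were called higher and 1 lower (median change 0.20). Of 38 other large subunit factors, 26 were called higher (median 0.23). Among all genes tested, 19.9% were called higher and 10.4% lower. Mphosph10, of the U3 snoRNP, rose by 0.70 ± 0.052 (limma adjusted p = 5.1e-08) and the nucleolar GTPase Gtpbp4 by 0.78 ± 0.049 (adjusted p = 9.2e-09). Of 12 further genes of polymerase I transcription, 6 rose and 1 fell. Rrn3, which brings the polymerase to its promoter and is a known target of mTOR signalling, had 7.21, 7.38 and 7.75 FPKM in refed Cre livers, against 4.23, 3.29 and 3.81 FPKM in fasted Cre livers. It had 7.47, 6 and 8.28 FPKM in refed GFP livers, against 3.42, 4.19 and 4.5 FPKM in fasted GFP livers. In KO livers Rrn3 had 4.89, 6.16 and 5.07 FPKM refed, against 3.91, 3.94 and 3.58 FPKM fasted, and in WT livers 5.44, 5.63 and 7.04 FPKM refed, against 4.05, 4.17 and 4.42 FPKM fasted. All 12 refed values exceeded all 12 fasted values, and the pooled change was 0.59 ± 0.056 (adjusted p = 1.0e-06). Ubtf, another polymerase I factor, changed by -0.11 ± 0.059 (adjusted p = 0.149).

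Cytosolic ribosomal proteins, the cargo of this pathway, gave small changes. In the pooled result 62 of 78 tested were called higher and 0 lower, beside 19.9% and 10.4% of all genes tested. Their median was 0.17, and 0.13 with median-ratio scaling. By genotype the median was 0.07 in Cre, 0.09 in GFP, 0.32 in KO and 0.22 in WT livers. With median-ratio scaling it was -0.02 in Cre, 0.00 in GFP, 0.34 in KO and 0.21 in WT livers, so the direction in Cre livers flipped with scaling. Limma called 11 of them higher in KO livers, beside 2.0% of genes, and 0 in Cre, GFP and WT livers. An unadjusted p under 0.05 held for 3 of them in Cre, 6 in GFP and 42 in WT livers. Among all genes tested, 2513 and 2491 of 10452 reached that in Cre and GFP livers, and 1614 of 10375 in WT livers. Medians of the ribosomal proteins were thus lower in the acute than in the constitutive model, while those of the biogenesis factors were higher there. The contrast of the lists was not tested. Myc itself had 1.11, 2.29 and 1.12 FPKM in refed Cre livers, against 2.83, 2.26 and 1.26 FPKM in fasted Cre livers. In GFP livers it had 7.52, 2.84 and 2.06 FPKM refed, against 1.07, 0.689 and 1.12 FPKM fasted. KO livers had 1.42, 1.94 and 2.43 FPKM of Myc refed, against 3.85, 3.14 and 1.31 FPKM fasted, and WT livers 2.51, 2.5 and 1.59 FPKM refed, against 2.35, 1.12 and 2.18 FPKM fasted. The states overlapped in Cre, KO and WT livers and were apart in GFP livers. Its pooled change was 0.20 ± 0.16 (limma adjusted p = 0.373). Of the 7 tested genes on the Myc network list, 2 were called higher and 1 lower in the pooled result. Of these 7 genes, 4 lay above 0 and 3 below, with a median of 0.09. The 2 with the lowest adjusted p were its partner Max, which rose by 0.40 ± 0.056 (adjusted p = 3.9e-05), and the repressor Mnt, which fell by 0.40 ± 0.064 (adjusted p = 0.00014). Mxd1 was not called (-0.09 ± 0.056, adjusted p = 0.233). Of 8 small nucleolar RNA host genes, 3 rose in the pooled result, beside 19.9% of all genes tested. Gas5 was among them (0.19 ± 0.065, adjusted p = 0.0336).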
